A study of Homo sapiens with 6 samples.

Results

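The 51 genes described here encode the machinery of DNA replication and S phase. They were taken by symbol from the count files of all 6 libraries, and 51 of 51 symbols were found among the 56637 listed genes. They comprise 9 genes of origin licensing, 14 of the replicative helicase and origin firing, 20 of the DNA polymerases and the fork, 3 of deoxynucleotide supply, 2 of S-phase histone mRNA and chromatin, and the 3 activator E2F genes. The libraries were made from total RNA of MM.1S, an established line from a human multiple myeloma, a cancer of plasma cells. The cells carried a lentiviral short hairpin RNA against KDM6B (shKDM6B, 3 libraries) or against luciferase (shLuc, 3 libraries), and both groups had been selected with puromycin. KDM6B, also called JMJD3, is a demethylase of lysine 27 of histone H3. A single KDM6B hairpin group is named in the labels, so a consequence of less KDM6B and an unrelated consequence of that hairpin cannot be told apart.

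Replication origins are licensed in G1, when the origin recognition complex (ORC), CDC6 and CDT1 load the MCM2-7 ring on DNA and geminin (GMNN) holds CDT1 in check afterwards. At the start of S phase the kinase CDC7 with DBF4 triggers assembly of CDC45 and the GINS complex on MCM2-7, which forms the active helicase known as CMG. Primase and polymerase alpha then lay down primers that polymerases delta and epsilon extend, with PCNA as the clamp and RFC as its loader. Transcription of many of these genes is driven by E2F factors once RB is inactivated.

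Library totals were 7952156 to 9848351 counts in shKDM6B and 7338393 to 8996159 in shLuc. KDM6B itself averaged 32.6 ± 2.4 CPM (TMM-scaled counts per 1000000) in shKDM6B and 53.8 ± 4.9 CPM in shLuc (SD, n = 3 each), with no overlap between groups. All 7 plasma cell genes were present: SDC1, IRF4, PRDM1, XBP1 and SLAMF7 were at 297 to 590 CPM in shKDM6B and at 320 to 539 CPM in shLuc. TNFRSF17 averaged 88.4 CPM in shKDM6B and 113.8 CPM in shLuc, and CD38 75.9 CPM in shKDM6B and 103.2 CPM in shLuc. Both were lower (log2 fold changes -0.37 and -0.45, adjusted p = 2.2e-06 and 3.9e-07 by edgeR), and PRDM1 was higher (0.15, adjusted p = 0.017). Of the B cell genes, PAX5, MS4A1 and CD22 had 0 to 2 raw counts in any library, whereas BACH2 averaged 62.4 CPM in shKDM6B and 92.9 CPM in shLuc and was lower (-0.58, adjusted p = 2.6e-08 by edgeR). All 10 epithelial markers (8 keratins, EPCAM and S100A2) had counts in at least 1 library. Their summed level was 35.9, 45.8 and 2.02 CPM in shKDM6B replicates 1 to 3 and 12.4, 2.94 and 3.31 CPM in shLuc replicates 1 to 3. KRT5, KRT14 and KRT19 were higher with overlapping groups (log2 fold changes 2.3, 2.9 and 2.4, adjusted p = 0.027, 0.0031 and 0.017 by edgeR). EPCAM went the other way, at 0.60 to 1.31 CPM in shKDM6B and 1.36 to 2.20 CPM in shLuc (adjusted p = 0.068 by edgeR). Leaving out the 3 libraries highest in the summed markers, an alternative chosen after the data were seen, leaves shKDM6B replicate 3 alone against shLuc replicates 2 and 3. The spread in that fit comes from shLuc only, and the lone shKDM6B library is assumed to vary like shLuc. Summed markers of T cells, monocytes and fibroblasts stayed at or below 6.46, 3.23 and 3.47 CPM in shKDM6B and 10.2, 2.37 and 0.961 CPM in shLuc.

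Since E2F factors act through promoters, the promoter windows of the 5 members whose call held under every alternative are shown first, from RefSeq (GRCh38.p14; 250 bases before to 50 after the annotated start). The counts were made on another build, GRCh37, per the submitters' processing notes. Capitals mark a match to an E2F-type motif on either strand. The motif was searched as TTTCCCGC, TTTCGCGC, TTTGCCGC and TTTGGCGC with their reverse complements, and none of the motifs searched contains another.
GINS1 (chr20:25407423-25407722, plus strand): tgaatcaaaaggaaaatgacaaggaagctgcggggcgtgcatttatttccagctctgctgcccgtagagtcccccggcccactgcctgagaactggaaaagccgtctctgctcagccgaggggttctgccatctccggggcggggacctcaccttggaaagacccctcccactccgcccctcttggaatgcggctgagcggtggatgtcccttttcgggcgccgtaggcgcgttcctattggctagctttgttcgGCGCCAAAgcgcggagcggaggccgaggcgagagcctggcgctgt
GINS2 (chr16:85688905-85689204, minus strand): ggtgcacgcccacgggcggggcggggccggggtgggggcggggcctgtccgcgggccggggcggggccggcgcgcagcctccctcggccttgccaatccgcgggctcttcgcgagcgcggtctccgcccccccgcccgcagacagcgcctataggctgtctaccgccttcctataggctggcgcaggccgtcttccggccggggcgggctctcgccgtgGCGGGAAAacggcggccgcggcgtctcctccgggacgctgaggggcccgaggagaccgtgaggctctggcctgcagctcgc
POLA1 (chrX:24693668-24693967, plus strand): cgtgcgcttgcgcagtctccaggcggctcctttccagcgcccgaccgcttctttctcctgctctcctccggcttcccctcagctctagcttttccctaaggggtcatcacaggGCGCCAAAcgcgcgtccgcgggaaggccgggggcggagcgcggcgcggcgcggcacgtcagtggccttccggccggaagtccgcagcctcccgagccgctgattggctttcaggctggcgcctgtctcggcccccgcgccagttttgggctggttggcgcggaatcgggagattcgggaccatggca
ORC3 (chr6:87589885-87590184, plus strand): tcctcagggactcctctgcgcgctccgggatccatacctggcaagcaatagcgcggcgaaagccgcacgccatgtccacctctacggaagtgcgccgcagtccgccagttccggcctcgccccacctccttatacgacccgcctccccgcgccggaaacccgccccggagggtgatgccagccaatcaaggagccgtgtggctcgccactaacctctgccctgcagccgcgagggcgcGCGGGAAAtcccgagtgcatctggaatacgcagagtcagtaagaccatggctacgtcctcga
ORC2 (chr2:200963611-200963910, minus strand): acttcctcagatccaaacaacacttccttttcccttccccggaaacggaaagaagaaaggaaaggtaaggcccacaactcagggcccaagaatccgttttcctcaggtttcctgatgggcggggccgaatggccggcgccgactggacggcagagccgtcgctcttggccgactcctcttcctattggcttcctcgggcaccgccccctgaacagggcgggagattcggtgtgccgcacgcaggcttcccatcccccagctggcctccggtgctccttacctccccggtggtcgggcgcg

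A match was present in the windows of GINS1, GINS2, POLA1 and ORC3, 1 in each, and no such letters were in the ORC2 window. The GINS1 match began 5 bases after the annotated start, and those of GINS2, POLA1 and ORC3 began 31, 137 and 12 bases before it. RefSeq windows were matched for 45 of the 51 genes, 59 windows in all; those of MCM4, MCM5, GINS4, POLD3, RPA2 and RPA3 were not used here. An E2F-type match was found in 25 of the 59 windows (42.4%), against 1164 of 35116 windows of all genes (3.31%). All 3 activator E2F genes had one, as did MCM2, MCM3, MCM6 and MCM7. A CCAAT box, on either strand, was in 32 of the 59 windows (54.2%) against 34.6% of all windows, and the CHR letters TTTGAA were in 3 (5.08%) against 15.2%. The background of all windows covers 27305 genes, tested here or not, and was not matched for base composition. By outcome, a window with E2F-type letters was held by 4 of the 7 matched members that were lower in shKDM6B, 1 of the 4 that were higher and 19 of the 34 matched members that did not pass. The letters were thus present in members of every outcome.

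Most replication genes kept their level within a narrow margin, and the GINS subunits GINS1 and GINS2 had the largest falls. All 51 had enough counts to be tested, with 62 to 4239 raw counts in a library. By edgeR's quasi-likelihood test, with p-values adjusted by Benjamini-Hochberg over all genes and a threshold of 0.05, 4 were higher in shKDM6B, 8 were lower and 39 did not pass. That is 23.5% of the members, where 39.1% of all 13839 tested genes passed (20.1% higher and 18.9% lower). The median log2 fold change was -0.058 over the members and -0.005 over all tested genes. The median size of the change, whatever its sign, was 0.086 for the members and 0.16 for all tested genes. Without shLuc replicate 2, 2 members were higher and 6 lower, against 2409 higher and 2211 lower of 14027 genes. By the DESeq2 Wald test 1 member was higher and 5 were lower, against 1808 higher and 1586 lower of 14995 genes. The fit of shKDM6B replicate 3 alone against shLuc replicates 2 and 3 has 1 library in a group. The share of members past the threshold is therefore not read from it. The shKDM6B and shLuc values did not overlap for 7 members that were higher and 14 that were lower, against 24.5% and 23.9% of all tested genes. The RNA comes from whole cultures, so fewer cells in S phase and less RNA per cell cannot be told apart.

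Another choice of scaling was enough to change the balance of calls. Scaling sets a factor for each library, so it can alter the spread within a group as well as the fold changes. When the scaling came from sparse genes alone (below 0.03 counts per exonic base), an alternative chosen after the data were seen, 5 members were higher and 4 lower, or 55.6% higher among those called against 33.3%. That scaling raised log2 fold changes by a median of 0.056 over all genes, so changes of sign in members closer to 0 than this follow from its construction. Over all genes the share of higher calls was 64.0% under that scaling, 51.5% in the test as reported and 46.3% to 53.3% under the other alternatives. Counts did not follow library size alike in all genes. Within groups, the median slope of log counts on log totals was 0.80 for genes with 0.3 to 1 counts per base. For those below 0.03 it was 1.39. Depth and other differences between the libraries of a group cannot be told apart in these slopes. The members had 0.031 to 0.98 counts per base. Of the 19 members with 0.3 to 1 counts per base 4 passed, where 31.8% of all genes at that density did, and of the 26 with 0.1 to 0.3 counts per base 7 passed, where 46.4% of all genes did. The part of read density in the members' small changes was not tested.

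**Figure D1:**
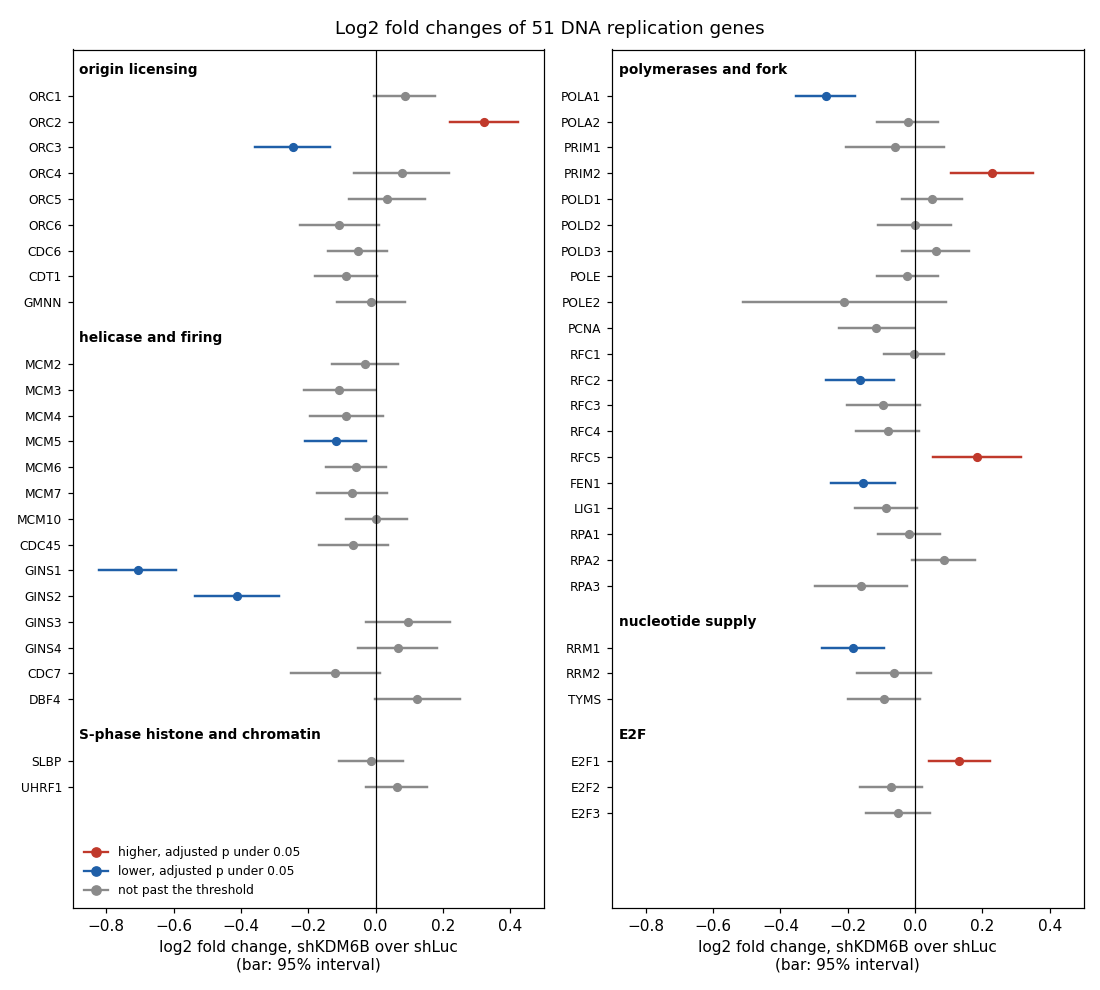
Log2 fold change of each of the 51 genes (shKDM6B over shLuc, x axis) with its 95% interval, grouped by role; red and blue mark genes past the adjusted p threshold as higher and lower, grey those not past it. GINS1 and GINS2 lie farthest to the left, and POLE2 has the widest interval, from -0.51 to 0.091.

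Among the licensing genes, 2 subunits of the origin recognition complex changed in opposite directions. ORC2, a core ORC subunit, had 79.7, 84.4 and 80.4 CPM in shKDM6B replicates 1 to 3, against 67.3, 63.4 and 65.1 CPM in shLuc replicates 1 to 3. Every shKDM6B library was above every shLuc library, and the rise was 0.32 on the log2 scale (SE 0.049, adjusted p = 1.6e-05 by edgeR). Exon sequence of AC005037.1 overlaps ORC2 on the other strand in GENCODE v29, so the ORC2 counts are uncertain. ORC3, which binds ORC2 in the complex, had 48.0, 50.2 and 50.2 CPM in shKDM6B, against 57.5, 58.3 and 60.2 CPM in shLuc. All 3 shKDM6B values were the lower ones, and the log2 fold change was -0.25 (SE 0.054, adjusted p = 8.6e-04 by edgeR).

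The other 4 ORC genes did not pass. ORC1, the subunit that is itself degraded and remade with the cell cycle, averaged 112.6 ± 3.0 CPM in shKDM6B and 105.9 ± 2.6 CPM in shLuc (SD, n = 3 each). Its 3 shKDM6B values were all above the shLuc values, but the log2 fold change of 0.086 had an adjusted p of 0.13 by edgeR. ORC4, ORC5 and ORC6 had log2 fold changes of 0.077, 0.033 and -0.11, with overlapping groups. Per kilobase of exon, ORC1 was the most abundant of the 6 in shLuc (33.5 CPM per kb) and ORC4 the least (4.50 CPM per kb).

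The loading factors that work with ORC did not pass. CDC6, the ATPase that recruits MCM2-7 to ORC, averaged 154.1 ± 4.1 CPM in shKDM6B and 159.8 ± 2.4 CPM in shLuc (SD, n = 3 each; log2 fold change -0.053, 95% interval -0.14 to 0.034). CDT1, its partner in loading, averaged 132.5 ± 4.2 CPM in shKDM6B and 140.6 ± 4.1 CPM in shLuc (log2 fold change -0.088, interval -0.18 to 0.003). Geminin, the CDT1 inhibitor encoded by GMNN, averaged 69.3 ± 1.0 CPM in shKDM6B and 69.9 ± 1.2 CPM in shLuc (log2 fold change -0.014). The intervals of these 3 genes all excluded a change of 1.2-fold or more in either direction.

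The GINS complex, an assembly of 4 small subunits that joins CDC45 to MCM2-7, had the largest changes among the 51 genes, with 2 of its subunits lower and 2 not past the threshold. GINS1 had raw counts of 467, 562 and 595 in shKDM6B replicates 1 to 3, against 703, 881 and 976 in shLuc replicates 1 to 3. Scaled for library size these were 59.4, 67.2 and 60.1 CPM in shKDM6B, against 96.5, 99.5 and 107.5 CPM in shLuc. The highest shKDM6B library lay well under the lowest shLuc library, and the shKDM6B mean was 61.5% of the shLuc mean (log2 fold change -0.71, SE 0.055, adjusted p = 1.1e-09 by edgeR).

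GINS2 had 41.4, 44.1 and 41.4 CPM in shKDM6B, against 56.3, 59.1 and 53.3 CPM in shLuc. Its groups did not overlap either, and its shKDM6B mean was 75.2% of the shLuc mean (log2 fold change -0.41, SE 0.060, adjusted p = 8.9e-06 by edgeR). An exon of GSE1 overlaps GINS2 on the other strand in GENCODE v29, and the kit as named does not mark strand, so reads of that pair cannot be told apart. GINS3 averaged 49.2 ± 0.7 CPM in shKDM6B and 46.1 ± 2.8 CPM in shLuc, and GINS4 56.0 ± 2.6 CPM in shKDM6B and 53.8 ± 2.1 CPM in shLuc (SD, n = 3 each). Neither passed, with log2 fold changes of 0.095 and 0.066, and the upper ends of their 95% intervals were 0.22 and 0.18.

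The unequal change showed in the ratio of one subunit's level to another's within a library, which does not depend on scaling between libraries. GINS3, the denominator here, had a log2 fold change of 0.095, and that small rise enters both ratios. Exon sequence of AC009118.2 overlaps GINS3 on the other strand, so its counts are uncertain. The ratio of GINS1 to GINS3 was 1.19, 1.38 and 1.22 in shKDM6B replicates 1 to 3 and 2.06, 2.05 and 2.50 in shLuc replicates 1 to 3. The ratio of GINS2 to GINS3 was 0.83, 0.91 and 0.84 in shKDM6B and 1.199, 1.219 and 1.241 in shLuc. Both ratios were lower in every shKDM6B library. The pairs were chosen with earlier results of these data known, and no test was made of them. Among other pairs computed, the groups overlapped for POLE2 to POLE (0.044 to 0.050 in shKDM6B, 0.041 to 0.062 in shLuc). They also overlapped for CDT1 to GMNN (1.880 to 1.954 in shKDM6B, 1.951 to 2.100 in shLuc). The ratios of ORC1 and of CDC6 to ORC2 were lower in every shKDM6B library.

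**Figure D2:**
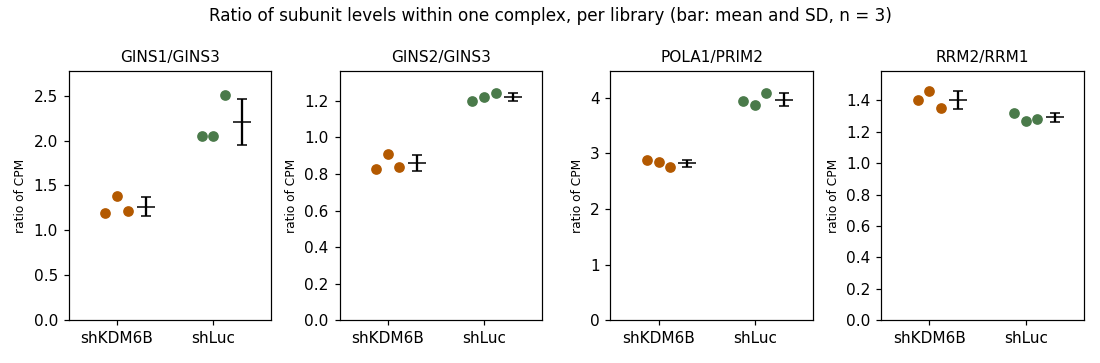
Ratio of the CPM of 2 subunits in each library (y axis, from 0) for 4 of the pairs computed, with the mean and SD of 3 libraries beside the points. For GINS1/GINS3, GINS2/GINS3 and POLA1/PRIM2 every shKDM6B point lies under every shLuc point, and for RRM2/RRM1 every shKDM6B point lies above.

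The 6 subunits of the MCM2-7 ring, the motor of the helicase, were among the most abundant members and changed little. Their log2 fold changes ran from -0.12 to -0.032, and the widest reach of their 95% intervals was -0.21 to 0.066. MCM5 passed narrowly: it had 311.7, 307.6 and 294.8 CPM in shKDM6B, against 335.5, 331.8 and 325.0 CPM in shLuc. The groups did not overlap, and the fall of 0.12 on the log2 scale had an adjusted p of 0.036 by edgeR. The call was lost in each of the 6 fits that left out 1 library (adjusted p = 0.051 to 0.13), by the DESeq2 Wald test (0.060) and under the scaling from sparse genes (0.65). MCM2, MCM3, MCM4, MCM6 and MCM7 did not pass.

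MCM3 averaged 355.5 ± 20.8 CPM in shKDM6B and 382.9 ± 17.8 CPM in shLuc (SD, n = 3 each; adjusted p = 0.099 by edgeR), with the most negative fold change of the ring after MCM5. MCM4 averaged 448.0 ± 26.6 CPM in shKDM6B and 475.7 ± 23.1 CPM in shLuc. In the fit of shKDM6B replicate 3 alone against shLuc replicates 2 and 3, MCM3 and MCM4 passed as lower (log2 fold changes -0.16 and -0.15), which says only that this library was lower. In shLuc the ring's genes stood at 45.1 to 104.9 CPM per kb of exon, with MCM3 highest and MCM5 lowest. That length takes all annotated exons together (7338 bases for MCM5, 3650 for MCM3), not the length of an mRNA. Without division by length, MCM6 (259.4 CPM in shLuc) was below MCM5 (330.8 CPM), so the order depends on the length used.

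The other firing factors did not pass. MCM10, which helps to activate the helicase, averaged 108.1 ± 2.3 CPM in shKDM6B and 107.9 ± 2.5 CPM in shLuc (SD, n = 3 each). CDC45 averaged 94.3 ± 6.4 CPM in shKDM6B and 98.5 ± 1.5 CPM in shLuc. The kinase subunit CDC7 and its activator DBF4 had log2 fold changes of -0.12 and 0.12, each with overlapping groups (adjusted p = 0.15 and 0.12 by edgeR). DBF4 passed as higher without shLuc replicate 3 (log2 fold change 0.19, adjusted p = 0.016) and under the scaling from sparse genes (0.18, adjusted p = 0.026).

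The complex of polymerase alpha and primase, which makes the RNA-DNA primers, also held a fall and a rise. POLA1, its catalytic polymerase subunit, had 134.9, 138.7 and 137.6 CPM in shKDM6B, against 163.1, 161.8 and 169.4 CPM in shLuc. The groups were well separated, and the fall was 0.27 on the log2 scale (SE 0.042, adjusted p = 2.6e-05 by edgeR). PRIM2, the large primase subunit, had 46.8, 48.9 and 49.96 CPM in shKDM6B, against 41.3, 41.8 and 41.4 CPM in shLuc. All 3 shKDM6B values were the higher ones (log2 fold change 0.23, SE 0.058, adjusted p = 0.0034 by edgeR), but by DESeq2 the adjusted p was 0.075.

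The other subunits of that complex did not pass. POLA2, the regulatory subunit, averaged 124.1 ± 3.5 CPM in shKDM6B and 126.0 ± 3.5 CPM in shLuc, and PRIM1, the catalytic primase subunit, 37.3 ± 2.8 CPM in shKDM6B and 38.8 ± 2.1 CPM in shLuc (SD, n = 3 each). The ratio of POLA1 to PRIM2 was 2.88, 2.84 and 2.75 in shKDM6B replicates 1 to 3 and 3.95, 3.87 and 4.09 in shLuc replicates 1 to 3.

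The replicative polymerases that extend the primers did not pass. The 3 polymerase delta genes POLD1, POLD2 and POLD3 had log2 fold changes from -0.001 to 0.061, and their intervals together reached from -0.11 to 0.16. POLE, the catalytic subunit of polymerase epsilon on the leading strand, averaged 207.7 ± 3.9 CPM in shKDM6B and 210.9 ± 7.2 CPM in shLuc (SD, n = 3 each). Its partner POLE2 was the member with the fewest counts: 71, 89 and 103 in shKDM6B replicates 1 to 3, against 62, 115 and 117 in shLuc replicates 1 to 3. Its 95% interval ran from -0.51 to 0.091 on the log2 scale, too wide to exclude a fall of the size seen for GINS2. Leaving out shLuc replicate 1, its lowest library, gave a log2 fold change of -0.37 (adjusted p = 0.032 by edgeR).

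The clamp loader RFC, 5 subunits that open PCNA and set it on DNA, had 1 subunit lower and 1 higher. RFC2 had 67.6, 68.9 and 68.0 CPM in shKDM6B, against 77.9, 78.4 and 73.1 CPM in shLuc, with no overlap (log2 fold change -0.16, SE 0.049, adjusted p = 0.011 by edgeR). RFC5 had 46.2, 46.2 and 48.3 CPM in shKDM6B, against 42.8, 38.3 and 43.2 CPM in shLuc, again with no overlap (log2 fold change 0.18, SE 0.063, adjusted p = 0.024 by edgeR). Neither passed by DESeq2 (adjusted p = 0.14 and 0.20) nor without shLuc replicate 2 (adjusted p = 0.053 and 0.16 by edgeR). RFC5 also lost its call without shKDM6B replicate 3 (0.083), and RFC2 with shKDM6B replicate 3 as the only shKDM6B library (0.15) and under the scaling from sparse genes (0.22). RFC5 shares exon sequence with its neighbour WSB2 on the other strand and has a pseudogene copy, so its counts are uncertain. RFC1, RFC3 and RFC4 did not pass, with log2 fold changes from -0.094 to -0.003.

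The clamp PCNA, per kilobase the most abundant of the 51 genes in shLuc at 120.0 CPM per kb, averaged 163 ± 12 CPM in shKDM6B and 176 ± 11 CPM in shLuc (SD, n = 3 each). The groups overlapped, and the log2 fold change of -0.12 had an adjusted p of 0.095 by edgeR. It passed as lower without shKDM6B replicate 1 (-0.15, adjusted p = 0.046) and with replicate 3 as the only shKDM6B library (-0.19, adjusted p = 0.0099); replicate 3 was its lowest library. PCNA has pseudogene copies that could take part of its reads.

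FEN1, the flap nuclease that trims Okazaki fragments, had 167.2, 168.4 and 159.5 CPM in shKDM6B, against 195.1, 179.7 and 176.7 CPM in shLuc. The groups did not overlap (log2 fold change -0.15, SE 0.046, adjusted p = 0.010 by edgeR). Its call was narrowly lost by DESeq2 (adjusted p = 0.051) and without shKDM6B replicate 3 or shLuc replicate 1 (0.052 and 0.059), and lost under the scaling from sparse genes (0.34). Exons of FADS2 and TMEM258 overlap FEN1. LIG1, the ligase that seals the fragments, averaged 208.1 ± 6.4 CPM in shKDM6B and 221.1 ± 9.3 CPM in shLuc (SD, n = 3 each; adjusted p = 0.13 by edgeR).

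The single-strand binding protein RPA had 3 subunits that did not pass, with log2 fold changes of -0.017 for RPA1, 0.085 for RPA2 and -0.16 for RPA3. RPA3, the smallest subunit, had 286, 303 and 332 raw counts in shKDM6B and 296, 336 and 361 in shLuc. Its scaled values did not overlap (35.4 ± 1.6 CPM in shKDM6B, 39.5 ± 1.4 CPM in shLuc; SD, n = 3 each), and its adjusted p was 0.060 by edgeR. It passed with upper-quartile scaling (-0.18, adjusted p = 0.037).

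**Figure D3:**
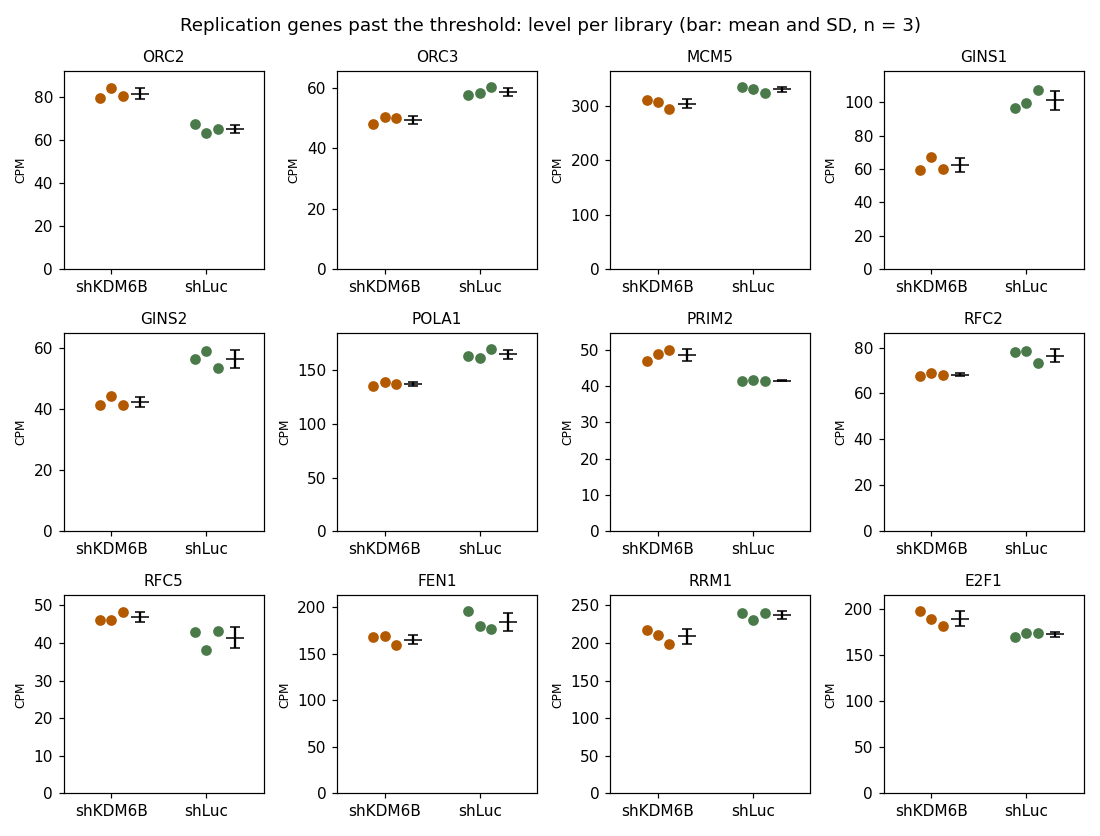
Level of the 12 genes past the threshold in each library (CPM, y axes from 0), with the mean and SD of 3 libraries beside the points. The groups do not overlap in any of the 12 panels, and the gap is widest for GINS1.

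Of the deoxynucleotide supply genes, RRM1 was lower. RRM1, the large subunit of ribonucleotide reductase, had 217.3, 210.4 and 198.3 CPM in shKDM6B, against 239.3, 231.1 and 240.3 CPM in shLuc. The groups did not overlap (log2 fold change -0.18, SE 0.045, adjusted p = 0.0022 by edgeR), and the call was lost under the scaling from sparse genes (-0.13, adjusted p = 0.24). Exon sequence of RRM1-AS1 overlaps RRM1 on the other strand. RRM2, the small subunit whose level follows S phase, averaged 292.7 ± 22.0 CPM in shKDM6B and 305.5 ± 12.1 CPM in shLuc (SD, n = 3 each), with overlapping groups. It did not pass (log2 fold change -0.063), except as lower with replicate 3, its lowest library, as the only shKDM6B library (-0.17, adjusted p = 0.0070). The ratio of RRM2 to RRM1 was 1.40, 1.46 and 1.35 in shKDM6B replicates 1 to 3 and 1.32, 1.26 and 1.28 in shLuc replicates 1 to 3.

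Thymidylate synthase (TYMS) averaged 102.8 ± 6.8 CPM in shKDM6B and 109.5 ± 5.2 CPM in shLuc (SD, n = 3 each) and did not pass (adjusted p = 0.17 by edgeR). Its exons overlap ENOSF1 on the other strand. SLBP, which binds the stem-loop of replication-dependent histone mRNAs, averaged 151.8 ± 8.0 CPM in shKDM6B and 153.2 ± 3.9 CPM in shLuc. UHRF1, which brings DNMT1 to newly replicated DNA, averaged 130.0 ± 4.1 CPM in shKDM6B and 124.5 ± 3.1 CPM in shLuc. Neither passed, with adjusted p values of 0.84 and 0.28 by edgeR.

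Of the activator E2F genes, E2F1 was slightly higher. E2F1 had 197.4, 188.3 and 181.1 CPM in shKDM6B, against 169.5, 173.2 and 174.0 CPM in shLuc. The groups did not overlap (log2 fold change 0.13, SE 0.044, adjusted p = 0.020 by edgeR). The call was lost by DESeq2 (adjusted p = 0.079), in 4 of the 6 fits that left out 1 library (0.062 to 0.11) and with replicate 3, the lowest of its group, as the only shKDM6B library (0.062 on the log2 scale, adjusted p = 0.47). E2F2 averaged 355.6 ± 10.3 CPM in shKDM6B and 373.8 ± 6.5 CPM in shLuc, and E2F3 102.1 ± 1.6 CPM in shKDM6B and 105.7 ± 4.9 CPM in shLuc (SD, n = 3 each); neither passed.

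The sizes of the 12 called changes were mostly small: GINS1, GINS2, ORC2 and POLA1 reached 1.2-fold, and the other 8 were under it. ORC2, ORC3, GINS1, GINS2 and POLA1 kept their call and direction under all 14 alternatives, and the other 7 lost it in at least 1. Of the 39 genes that did not pass, 28 had a negative and 11 a positive log2 fold change, from -0.21 to 0.12. The sign was not counted over all tested genes, whose median log2 fold change was -0.005. Several of the members' signs depended on the scaling. Under that from sparse genes CDC6, GMNN, MCM2, POLA2, POLD2, POLE, RFC1, RPA1, SLBP and E2F3 were positive. For 37 of the 39 the 95% interval excluded a change of 1.2-fold or more in either direction; the exceptions were POLE2 and RPA3. The spread between replicates was small, with a median SD of 3.27% of the mean in shKDM6B and 3.49% in shLuc.

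The summed level of the 51 genes was 7624, 7602 and 7228 CPM in shKDM6B replicates 1 to 3 and 7961, 7670 and 7706 CPM in shLuc replicates 1 to 3. Every shKDM6B sum was under every shLuc sum. The lowest sum was in the deepest library, shKDM6B replicate 3, and the highest in the shallowest, shLuc replicate 1; the part of depth in this difference was not tested. The licensing genes summed to 754.0 ± 9.9 CPM in shKDM6B and 755.6 ± 1.4 CPM in shLuc (SD, n = 3 each). The helicase and firing genes summed to 2593 ± 97 CPM in shKDM6B and 2760 ± 76 CPM in shLuc, and the nucleotide supply genes to 604.1 ± 37.6 CPM in shKDM6B and 651.9 ± 19.8 CPM in shLuc.

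Other genes of the pathway, 111 in 5 lists chosen with earlier results of these data known, gave the surroundings of these changes. Of 30 further replisome and checkpoint genes 1 was higher, 4 were lower and 25 did not pass, 16.7% past the threshold against 39.1% of all tested genes (median log2 fold change 0.026). USP1, the deubiquitinase of PCNA, averaged 150.9 ± 6.5 CPM in shKDM6B and 189.9 ± 7.3 CPM in shLuc (SD, n = 3 each; log2 fold change -0.33, adjusted p = 3.8e-06 by edgeR). RNASEH2B (-0.21), a subunit of the enzyme that removes ribonucleotides from DNA, MCM8 (-0.15) and the polymerase delta subunit POLD4 (-0.32) were also lower. The 1 higher gene was DSCC1 (0.14), a subunit of an alternative clamp loader. The number higher was 3 without shLuc replicate 3 and 0 without any other single library, and the number lower was 2 without shKDM6B replicate 1.

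Of 14 genes that couple chromatin to replication 1 was higher, 4 were lower and 9 did not pass, 35.7% past the threshold and so near the 39.1% of all tested genes (median -0.043). MMS22L (-0.23), which acts at stalled forks, CHAF1B (-0.19), a histone chaperone subunit, and NASP (-0.17), a carrier of histone H3, were lower. The chromatin remodeller HELLS was higher (0.17). Under the scaling from sparse genes 1 gene of this list was lower instead of 4, and without shKDM6B replicate 2 or shLuc replicate 2 none (0) was higher.

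Of 24 other genes of nucleotide supply 8 were higher, 4 lower and 12 did not pass, 50% past the threshold against 39.1% of all tested genes (median 0.038). IMPDH1, an enzyme that commits IMP to guanine nucleotide synthesis, averaged 215.4 ± 8.3 CPM in shKDM6B and 108.8 ± 1.4 CPM in shLuc (SD, n = 3 each; log2 fold change 0.98, adjusted p = 3.3e-13 by edgeR). The number higher in this list was 4 without shKDM6B replicate 2 and 5 without shLuc replicate 2. DHODH (0.26), of pyrimidine synthesis, was higher, whereas thymidylate kinase DTYMK (-0.39) and the purine enzyme ADSL (-0.21) were lower.

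Of 23 genes of the E2F and RB network 4 were higher, 4 lower and 15 did not pass, 34.8% past the threshold and again near the share of all tested genes (39.1%; median -0.025). E2F7, an E2F that represses the activators' targets, averaged 117.4 ± 2.0 CPM in shKDM6B and 71.5 ± 2.3 CPM in shLuc (SD, n = 3 each; log2 fold change 0.71, adjusted p = 5.6e-11 by edgeR). The phosphatase CDC25A (0.20) was higher, and SKP2 (-0.29), the ubiquitin ligase subunit that targets the inhibitor p27, and cyclin E2 (CCNE2, -0.54) were lower. CCNE2 had 62 to 86 raw counts in shKDM6B libraries and 81 to 113 in shLuc libraries.

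Of 20 mitosis genes 6 were higher, 7 lower and 7 did not pass (median -0.028). KIF11 (0.53), a spindle motor, and NUSAP1 (0.22) were higher, and the kinetochore proteins CENPE (-0.42) and CENPF (-0.30) were lower. Without shKDM6B replicate 3, 4 were lower. The 20 mitosis genes had 65.0% past the threshold, the 51 replication genes 23.5% and all tested genes 39.1%; a difference between the lists was not tested.

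**Figure D4:**
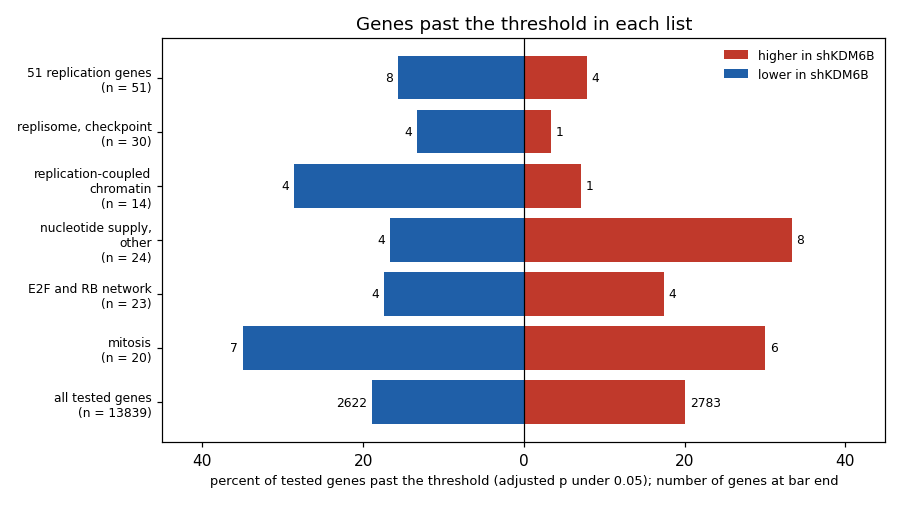
Share of tested genes past the adjusted p threshold in each list (x axis, percent; higher in shKDM6B to the right, lower to the left), with the number of genes at each bar's end. The 51 replication genes had 4 higher and 8 lower, and all 13839 tested genes had 2783 higher and 2622 lower.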

How the data were processed

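MM.1S RNA was sequenced in 3 shKDM6B and 3 shLuc libraries. The authors deposited raw counts per gene symbol for each library, whole numbers for 56637 symbols; 1 further line per file, damaged by conversion to a date, was not read. The tools named in the submitters' processing notes are STAR, featureCounts and DESeq, with the build GRCh37 (hg19); their versions, the annotation, the strand setting and any handling of duplicates are not given there. The authors' table of normalized values was not used. The labels do not say that cultures were separate, so the p-values rest on differences among libraries that may be technical replicates. Pairs of libraries within a group were compared by chi-square over sparse genes (below 0.03 counts per exonic base) with at least 20 counts per pair. Chi-square per degree of freedom was 1.08 to 1.23, where counting noise alone gives 1 (largest p = 0.0017 by chi-square). The excess over counting noise was thus small in these sparse genes. All members are denser (0.031 counts per base or more), so this comparison did not cover their spread. No library was treated as a repeat deposit of another, but this does not show that they are separate cultures.

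The test was edgeR's quasi-likelihood test (edgeR 4.0.16, R 4.3.3) after filterByExpr and TMM scaling, with group as its term and Benjamini-Hochberg adjustment over 13839 genes; the pipeline was tested on simulated data. The SE is the log2 fold change divided by the root of the F statistic, and intervals are 95%. CPM is TMM-scaled. Exon lengths and overlaps came from GENCODE v29, and the length of a gene is that of all its annotated exons together. Overlaps are not named above for every member that has one. Exons of NACA overlap PRIM1 on the same strand. Those of EIF4A2, AP4M1 and SLC25A40 overlap RFC4, MCM7 and DBF4 on the other strand. RRM2 and RPA2 have pseudogene copies. The counts of such members are uncertain too. Alternatives were DESeq2 size factors, upper-quartile scaling, other filters, the replicate number as a block, DESeq2 1.42.0, and leaving out each library. Added after the data were seen were TMM scaling from sparse genes (below 0.03 counts per exonic base) and leaving out the 3 libraries high in epithelial markers (shKDM6B replicates 1 and 2 and shLuc replicate 1), which leaves 1 shKDM6B library.

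The members and lists were chosen with earlier results of these data known. Every member is accounted for; those past the threshold are given in full, and up to 4 genes with the smallest p from each other list. DSCC1 and the cell type markers were named in addition.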

Additional observations from a re-analysis of the deposited data

How the results depend on the processing

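ORC2, ORC3, GINS1, GINS2 and POLA1 kept their call and direction under all 14 alternatives, with log2 fold changes of GINS1 from -0.78 to -0.65. With each library left out in turn, the number of replication genes higher ran from 2 to 5 and lower from 6 to 8, of all tested genes higher from 2290 to 2567 and lower from 2211 to 2536. For the replisome list higher ran from 0 to 3 and lower from 2 to 4, for replication-coupled chromatin higher from 0 to 1 and lower from 3 to 4, for other nucleotide supply higher from 4 to 7 and lower from 4 to 6, for the E2F and RB network lower from 3 to 5, and for mitosis lower from 4 to 7. By the DESeq2 Wald test 1 replication gene was higher and 5 lower, of all genes 1808 higher and 1586 lower, of the replisome list 0 higher and 2 lower, of the chromatin list 0 higher, of other nucleotide supply 5 higher and of mitosis 4 lower. Replisome genes higher were 0 with upper-quartile scaling and 0 with no filter. Leaving out the 3 libraries high in epithelial markers leaves 1 shKDM6B library against 2 of shLuc, so numbers of calls are not read from that fit. Under the scaling from sparse genes 4 replication genes were lower, the replisome list had 2 higher and 1 lower, and the numbers lower were 1 for chromatin, 2 for other nucleotide supply, 2 for the E2F network and 3 for mitosis. The cause of these moves was not tested.

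Deviations of same-numbered libraries had r = 0.14, -0.075 and 0.16 over genes, and those of unlike-numbered libraries r = -0.18 to 0.044. The labels name no pairing, and these values do not settle whether the numbers pair the libraries. With the replicate number as a block 4 replication genes were higher and 13 lower, 2 replisome genes higher and 7 E2F network genes lower. Of all 13839 tested genes 3166 were higher and 3052 lower with the block. The replication genes added were MCM3, MCM4, PCNA, LIG1 and RPA3 (adjusted p = 0.0060 to 0.045 by edgeR). 

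None of the 12 replication genes past the threshold changed sign under any alternative, nor did KDM6B; genes outside these were not followed singly. Of 714 values of single replication genes under an alternative, 32 changed sign, all of genes not past the threshold. MCM10 was at -0.0018 with DESeq2 size factors, -0.016 with upper-quartile scaling, -0.00068 with a filter of 1 CPM and -0.020 without the 3 libraries high in epithelial markers, and POLA2 was at 0.013 without those libraries. POLD2 was at 0.00050 with no filter and 0.00098 by DESeq2. Under the scaling from sparse genes, which raised all genes by a median of 0.056, CDC6 was at 0.0044, GMNN 0.043, MCM2 0.025, POLA2 0.035, POLD2 0.055, POLE 0.035, RFC1 0.054, RPA1 0.040, SLBP 0.044 and E2F3 0.0070. With a library left out, MCM10 ran from -0.019 to 0.018, ORC5 from -0.0026 to 0.065, GMNN from -0.029 to 0.0013, POLD2 from -0.035 to 0.055, POLE from -0.043 to 0.0019, RFC1 from -0.025 to 0.019, RPA1 from -0.040 to 0.010, RRM2 from -0.10 to 0.0020 and SLBP from -0.045 to 0.033. POLE2, with the fewest counts of the 51 genes, had the widest 95% interval; the part of depth in it was not tested.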
